A study of Mus musculus with 3 samples.

Results

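The genes that make microRNAs and the Argonaute genes that use them were described in the medial prefrontal cortex (mPFC) of the mouse, which lies at the front of the cerebral cortex. The 10 genes were taken by name from the RNA-seq gene table: Drosha, Dgcr8, Xpo5, Dicer1, Tarbp2, Prkra, Ago1, Ago2, Ago3 and Ago4. They are 10 of the 46073 genes listed, and each matched exactly 1 Ensembl identifier. The mice were untreated C57BL/6 animals aged 3 months. The series holds 3 samples of this tissue, DNA pulled down by a methylcytosine antibody (MeDIP), input DNA without that step, and RNA, with 5 replicates stated for MeDIP, 5 input samples pooled and 3 replicates stated for RNA. The RNA table was used, and the DNA data were not analysed here. No group carries a treatment or a mutation, so nothing was compared between conditions. The question addressed was how the levels of these genes stood to each other and to the rest of the table.

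MicroRNAs are short RNAs that guide silencing proteins to partly complementary messenger RNAs. In the nucleus the Drosha nuclease and its RNA-binding partner Dgcr8 cut a hairpin out of the primary transcript, Xpo5 carries it to the cytoplasm with Ran, and Dicer1 trims it to a short duplex. An Argonaute protein takes up one strand and, through GW182 proteins of the Tnrc6 family, recruits deadenylation and decapping factors. In neurons the pathway is known to limit the translation of mRNAs near synapses, and loss of Dicer1 from mouse forebrain neurons is known to cause degeneration.

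Levels are in FPKM, which divides the fragments of a gene by transcript length in kilobases and by mapped fragments in units of 1000000. On this scale per length, genes of a sample can be set side by side, but the transcript lengths used are not given. Ratios between genes below are therefore ratios of FPKM and may differ from ratios of transcript number. The table has 2 value columns, and they held the same value in 46073 of 46073 rows, so they were counted as 1 sample. No value below therefore has an error, and differences between genes could not be tested. Fragment counts are not given, the depth is unknown and intervals for counting error were not computed. The tissue was bulk, so a low level in many cells and a high level in few cells cannot be told apart. The tissue label was checked against 33 marker genes. The neuronal Snap25, Syt1, Rbfox3 and Eno2 lay between 80.0 and 1279 FPKM, and the excitatory Slc17a7, Camk2a and Nrgn between 353 and 874 FPKM. Glial markers were present as well, with medians of 37.9 FPKM in astrocyte, 68.2 FPKM in oligodendrocyte and 24.8 FPKM in microglia lists. The endothelial list had a median of 5.85 FPKM, the striatal list one of 1.63 FPKM, the inhibitory neuron list one of 21.2 FPKM and the blood list one of 15.0 FPKM. Of the choroid plexus markers, Ttr was listed at 566 FPKM, against 12.5 FPKM for Folr1 and 8.57 FPKM for Kcnj13. Ttr was thus above the excitatory Slc17a7, at 353 FPKM. The markers therefore do not show that the sample held cortex alone. The part of each cell type in the levels below was not tested.

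The 10 genes ranged from 1.40 FPKM for Ago4 to 23.3 FPKM for Drosha, a 16.6-fold range. Each was at or above the floor of 1 FPKM, which 31.5% of all rows and 58.6% of protein-coding rows passed. Their median was 6.36 FPKM, against 0.0414 FPKM over all rows and 2.59 FPKM over protein-coding rows. Among the 12085 protein-coding genes that passed the floor the median was 9.86 FPKM, with quartiles at 4.13 and 23.7 FPKM. Drosha and Tarbp2 lay above that median and the other 8 below it. Between the quartiles lay 8 of the genes, Ago3 and Ago4 lay under the lower quartile, and none lay over the upper. The median of the 10 genes stood at the 36.7th percentile of detected protein-coding genes, the 63.0th of all protein-coding rows and the 81.3rd of all rows.

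**Figure D1:**
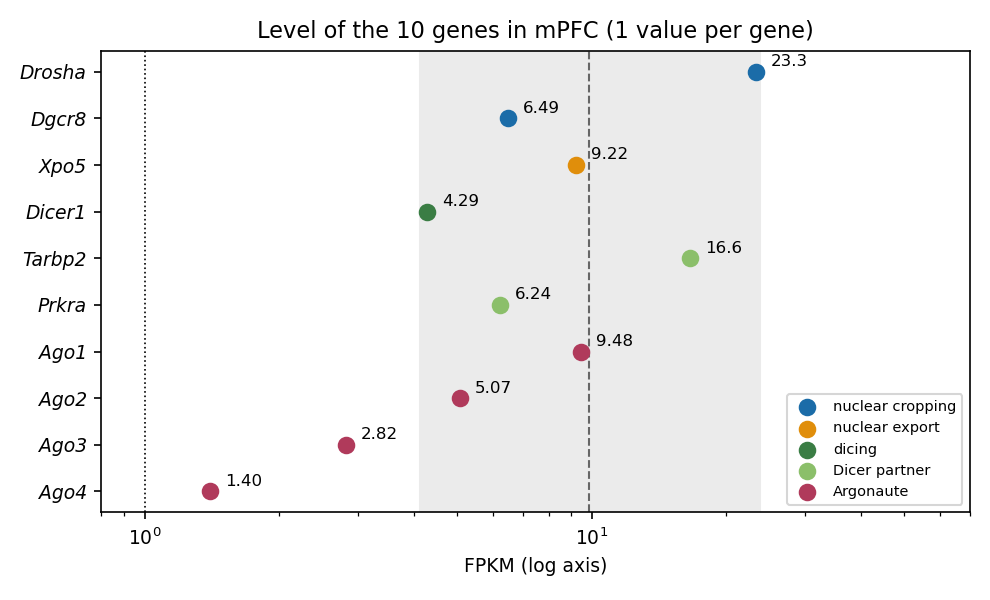
Level of each of the 10 genes in FPKM on a log axis, 1 value per gene, coloured by step of the pathway. The grey band spans the quartiles of detected protein-coding genes (4.13 to 23.7 FPKM), the dashed line is their median (9.86 FPKM) and the dotted line the floor of 1 FPKM; Drosha and Tarbp2 lie right of the dashed line and Ago3 and Ago4 left of the band.

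In order of level the genes ran Drosha, Tarbp2, Ago1, Xpo5, Dgcr8, Prkra, Ago2, Dicer1, Ago3 and Ago4. Neighbours in that order differed by 1.03-fold (Ago1 over Xpo5) to 2.01-fold (Ago3 over Ago4). Ago1 and Xpo5, and likewise Dgcr8 and Prkra, which were 1.04-fold apart, had nearly the same value. With no spread between libraries, the order of such neighbours is that of a single table.

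The nuclear step was led by its nuclease. Drosha (ENSMUSG00000022191, chromosome 15, 12824804 to 12935291, GRCm38.p6), the RNase III enzyme that crops the primary transcript, was at 23.3 FPKM, the 85.1st percentile of protein-coding rows. Dgcr8 (ENSMUSG00000022718, chromosome 16, 18253948 to 18289251), which binds the hairpin as a dimer and holds it for Drosha, was at 6.49 FPKM, against 23.3 FPKM for Drosha. Drosha was thus 3.59-fold above its obligatory partner. Dgcr8 overlaps the tRNA methyltransferase gene Trmt2a (17.7 FPKM), which lies on the other strand, by 825 bases. Whether counting used strand is not given in the sources used here, so the value of Dgcr8 is uncertain.

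The Dgcr8 transcript is itself a hairpin carrier. Drosha is known to cut hairpins in the Dgcr8 mRNA and so to lower it. In the RefSeq annotation 2 microRNA hairpins lie inside Dgcr8 on its own strand, miR-1306 (chromosome 16, 18284239 to 18284317) and miR-3618 (18284550 to 18284637). Their mature forms from RefSeq (GRCm38.p6) are shown because they mark the sites in a member's own transcript, with the seed, bases 2 to 8, in capitals.
mmu-miR-1306-5p: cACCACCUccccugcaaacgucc
mmu-miR-1306-3p: aCGUUGGCucugguggugaug
mmu-miR-3618-5p: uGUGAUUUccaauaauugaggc
mmu-miR-3618-3p: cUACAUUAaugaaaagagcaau
No seed is shared among these forms. The rows of both hairpins held values under 1e-06 FPKM, while Dgcr8 stood at 6.49 FPKM. Another hairpin, miR-693, lies inside Xpo5 on the same strand, and its row was listed at 0. The library kit selects polyadenylated RNA and is not made to capture hairpins or mature microRNAs, so these rows are not levels of microRNA.

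Xpo5 and Dicer1 stood below Drosha. Xpo5 (ENSMUSG00000067150, chromosome 17, 46202811 to 46243598), the exportin of hairpin precursors, was at 9.22 FPKM, against 23.3 FPKM for Drosha, 2.52-fold lower. Ran, the GTPase that loads Xpo5, was at 76.8 FPKM, 8.33-fold above Xpo5. Ran serves many other nuclear transport routes and has processed pseudogenes, so its value is uncertain. Dicer1 (ENSMUSG00000041415, chromosome 12, 104687740 to 104751968), the RNase III enzyme that cuts the precursor in the cytoplasm, was at 4.29 FPKM, against 23.3 FPKM for Drosha. The cytoplasmic nuclease was thus 5.43-fold below the nuclear one. Dicer1 stood at the 56.7th percentile of protein-coding rows and at the 26.0th of those detected.

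The Dicer partners were higher than Dicer1 itself. Tarbp2 (ENSMUSG00000023051, chromosome 15, 102516077 to 102523676), a double-stranded RNA-binding protein that steadies Dicer1 and tunes its cut, was at 16.6 FPKM, 3.87-fold above Dicer1. Prkra (ENSMUSG00000002731, chromosome 2, 76609215 to 76648220), a related partner that also activates the kinase PKR, was at 6.24 FPKM, against 16.6 FPKM for Tarbp2. Tarbp2 was 2.66-fold above Prkra, and Prkra was 1.46-fold above Dicer1. Tarbp2 overlaps the kinase gene Map3k12 (27.1 FPKM) on the other strand by 928 bases, which makes its value uncertain in the same way.

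The 4 Argonaute genes formed a graded series with Ago1 highest. Ago1 (ENSMUSG00000041530) was at 9.48 FPKM, Ago2 (ENSMUSG00000036698) at 5.07 FPKM, Ago3 (ENSMUSG00000028842) at 2.82 FPKM and Ago4 (ENSMUSG00000042500) at 1.40 FPKM. Ago1 made up 50.5% of their summed 18.8 FPKM, Ago2 27.0%, Ago3 15.0% and Ago4 7.47%. Ago2 is the member known to slice fully matched targets, and all 4 proteins bind microRNAs. Ago2 was at 5.07 FPKM, against 9.48 FPKM for Ago1, 1.87-fold lower. Ago2 was 1.79-fold above Ago3 and 3.61-fold above Ago4, and Ago1 was 3.36-fold above Ago3 and 6.76-fold above Ago4. The log2(FPKM + 1) scale understates differences of low genes. On it, 3 of the 6 Argonaute pairs were at least 2-fold apart: Ago3 and Ago1, Ago4 and Ago1, and Ago2 and Ago4. No share over all gene pairs is given here beside that count. The Argonaute genes had a median of 3.94 FPKM and the 6 processing genes one of 7.86 FPKM. The Argonaute sum was 4.38 times the level of Dicer1.

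Of these genes, 3 lie side by side in the genome. On chromosome 4 (GRCm38.p6) Ago3 spans 126326994 to 126431670, Ago1 126435012 to 126468707 and Ago4 126489487 to 126533586, all on the minus strand. Ago2 lies apart, on chromosome 15 from 73101625 to 73184947. Within the cluster Ago3 and Ago1 are 3341 bases apart and Ago1 and Ago4 20779 bases. The middle gene, Ago1, was the highest of the cluster, and its neighbours on either side were 3.36-fold and 6.76-fold lower. The flanking genes were Tekt2, a ciliary filament gene, at 0.663 FPKM and Clspn, a replication checkpoint gene, at 0.379 FPKM. Beyond Tekt2 lay Adprhl2, a hydrolase gene, at 9.48 FPKM, and then Col8a2 at 1.14 FPKM. Beyond Clspn lay 5730409E04Rik at 25.7 FPKM, above Ago1. The lncRNA gene Gm31725 lies inside the span of Ago2 and was not analysed here.

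**Figure D2:**
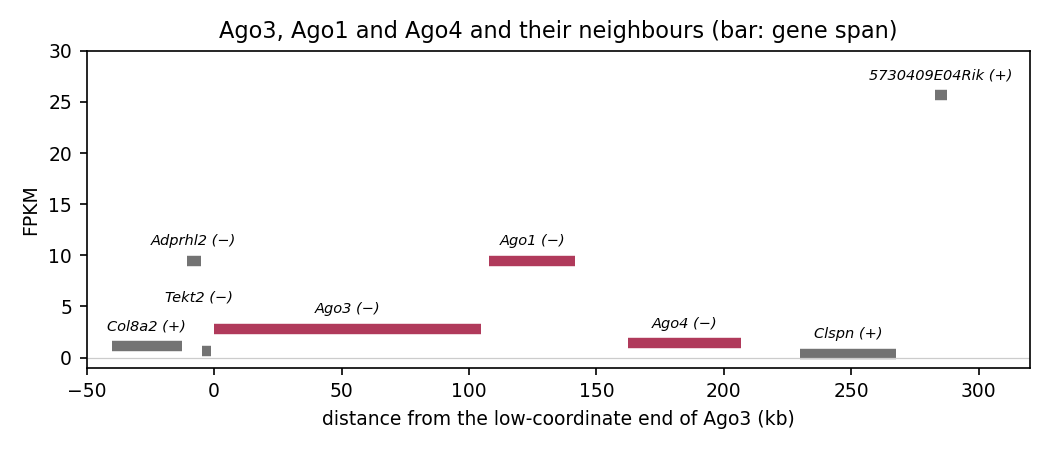
Level in FPKM (vertical axis) against position along the chromosome, as distance in kb from the low-coordinate end of Ago3 (horizontal axis); each bar spans a protein-coding gene, red for Argonaute genes and grey for neighbours, with its strand in brackets. Ago1, at 9.48 FPKM, sits above Ago3 at 2.82 and Ago4 at 1.40 FPKM on either side of it.

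Around the 10 genes, 99 genes of 7 pathway lists were read, and 83 of them were at or above 1 FPKM. That floor was passed by 31.5% of all rows and 58.6% of protein-coding rows, the background for the count of each list. The cofactors of the nuclear step were all above the floor (12 of 12), with a median of 46.6 FPKM, 7.32 times that of the 10 genes. Tardbp, an RNA-binding protein that associates with Drosha, was at 83.0 FPKM. The helicase Ddx5 was at 140 FPKM and its paralog Ddx17 at 43.5 FPKM, a 3.21-fold difference. Lowest were Fxr1, a paralog of the fragile X protein, at 17.3 FPKM, against 50.3 FPKM for Fxr2, and Khsrp, which binds hairpin loops, at 12.9 FPKM. Every cofactor therefore lay above 9.86 FPKM, the median of detected protein-coding genes, as Drosha did and Dgcr8 did not. Most of these proteins also serve splicing and transcription.

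Genes for tailing and decay of precursors were spread widely, with 11 of 13 at or above 1 FPKM and a median of 7.84 FPKM. Tsnax and Tsn, which together form an endonuclease that trims the passenger strand, were at 60.0 and 40.6 FPKM, and the Tudor nuclease gene Snd1 was at 47.0 FPKM. The uridylyl transferases Tut4 and Tut7 were at 12.9 and 7.84 FPKM, 1.64-fold apart. The genes under the floor were the let-7 blockers of embryonic cells, Lin28b at 0.409 FPKM and Lin28a listed at 0.

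The silencing effectors ran from 1.66 to 58.3 FPKM, a wider range than that of the 10 genes. Of the GW182 and silencing effectors 22 of 22 were at or above the floor, with a median of 9.22 FPKM, 1.45 times that of the 10 genes. Tnrc6c was at 10.5 FPKM, Tnrc6a at 6.49 FPKM and Tnrc6b at 3.82 FPKM, and these GW182 genes summed to 20.8 FPKM. The Argonaute sum of 18.8 FPKM was 0.901 times theirs. The deadenylase genes Cnot7 and Cnot8 were at 58.3 and 29.3 FPKM and the poly(A)-binding protein gene Pabpc1 was at 43.4 FPKM. Lowest were Limd1, a LIM-domain partner of Argonaute, at 1.95 FPKM and the helicase gene Mov10 at 1.66 FPKM. Tnrc6b and Tnrc6c were 2.76-fold apart.

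Chaperones that load Argonaute were the highest list, with 8 of 8 above the floor and a median of 55.3 FPKM. Hsp90ab1, Hspa8 and Hsp90aa1, general chaperones with processed pseudogenes, led it at 596, 484 and 299 FPKM. Dnajb1 was at 18.2 FPKM and Fkbp5 at 11.4 FPKM. Of the regulators and neuronal partners of Argonaute 12 of 13 passed the floor, and the median was 19.9 FPKM. Fxr2, Trim3 and Trim32 were at 50.3, 48.8 and 48.6 FPKM. Gemin4, found with Argonaute in human cells, was at 2.66 FPKM, and Trim71, a stem cell ubiquitin ligase, was under the floor at 0.0853 FPKM.

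Genes of the PIWI branch of the family had low values. PIWI proteins are Argonaute relatives that carry piRNAs in the germline. Of 13 PIWI pathway genes 1 passed the floor, Tdrkh, a mitochondrial Tudor protein, at 11.3 FPKM. Of protein-coding rows 58.6% passed it. Piwil2 was at 0.0883 FPKM, against 5.07 FPKM for Ago2, 57.4-fold lower. Piwil1, Piwil2 and Piwil4 summed to 0.144 FPKM, and the Argonaute sum was 130 times that. Henmt1, which methylates piRNA ends, was at 0.791 FPKM and the germ cell helicase gene Ddx4 at 0.657 FPKM. Mov10l1, a piRNA helicase, was at 0.0107 FPKM and Asz1 was listed at 0.

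**Figure D3:**
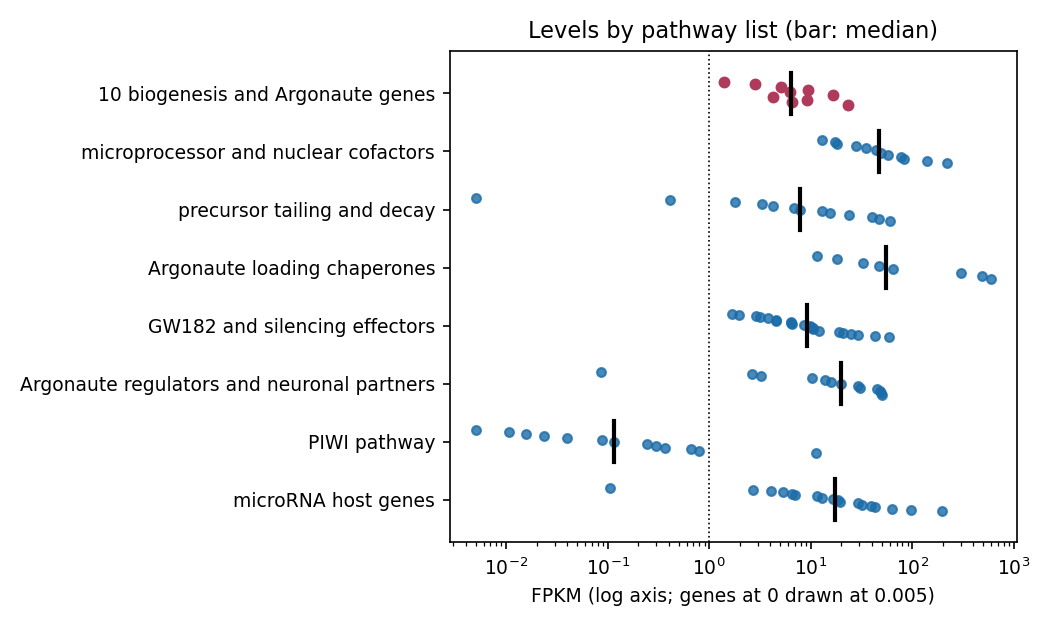
Level in FPKM on a log axis for the 10 genes (red, top) and the 7 pathway lists (blue), 1 point per gene, with genes listed at 0 drawn at the left end, the median as a black bar and the floor of 1 FPKM as a dotted line. The chaperone and nuclear cofactor medians, 55.3 and 46.6 FPKM, lie right of the median of the 10 genes at 6.36 FPKM, and the PIWI median, 0.116 FPKM, lies left of the floor.

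The listed genes that carry microRNAs had a higher median than the 10 processing and silencing genes, and other hosts were not read. Of 18 host genes 17 were at or above the floor, with a median of 17.5 FPKM, 2.75 times that of the 10 genes. Over all rows 31.5% passed the floor, and over protein-coding rows 58.6%. Hnrnpk, an RNA-binding protein gene with pseudogenes that hosts miR-7a, was at 194 FPKM. Arpp21 and R3hdm1 were at 97.7 and 63.2 FPKM, 1.55-fold apart. Lowest were Mir99ahg at 2.71 FPKM and Mir17hg, host of a cluster of dividing cells, at 0.106 FPKM. A host and a microRNA on its strand can share a primary transcript, but these values are of the host's gene, coding or non-coding.

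Mature sequences are given for some hosts, chosen after their values were seen, to show loci that share a mature form or a seed, beside miR-7a of the highest host and the neuronal miR-9, with the RefSeq coordinates of build GRCm38.p6 checked to lie inside the host and the seed in capitals. Arpp21 and R3hdm1 carry the same main form, miR-128-3p, and their other arms share a seed. Pank1 (4.09 FPKM) and Pank3 (6.53 FPKM), genes of coenzyme A synthesis, carry miR-107 and miR-103, which share their seed. Mcm7, a replication helicase gene at 5.34 FPKM, carries miR-93 and miR-106b with a common seed.
mmu-miR-128-3p: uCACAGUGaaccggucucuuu
mmu-miR-128-1-5p: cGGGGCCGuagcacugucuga
mmu-miR-128-2-5p: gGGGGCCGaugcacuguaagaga
mmu-miR-7a-5p: uGGAAGACuagugauuuuguugu
mmu-miR-9-5p: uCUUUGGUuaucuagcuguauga
mmu-miR-103-3p: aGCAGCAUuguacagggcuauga
mmu-miR-107-3p: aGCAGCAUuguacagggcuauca
mmu-miR-93-5p: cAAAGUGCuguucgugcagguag
mmu-miR-106b-5p: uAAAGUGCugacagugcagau
Both loci of miR-128 thus lie in hosts at 97.7 and 63.2 FPKM, while the loci of miR-103 and miR-107 shown here lie in hosts at 6.53 and 4.09 FPKM. The miR-128 hairpins span 112118636 to 112118711 on chromosome 9, in Arpp21, and 128202361 to 128202430 on chromosome 1, in R3hdm1. The miR-7a hairpin in Hnrnpk spans 58392779 to 58392886 on chromosome 13. Hairpins of miR-103 and miR-107 span 35782396 to 35782481 on chromosome 11 and 34820687 to 34820773 on chromosome 19. In Mcm7, on chromosome 5, miR-93 spans 138165523 to 138165610 and miR-106b 138165737 to 138165818. Exons and introns were not part of the annotation used. Mir9-3hg, whose miR-9 hairpin spans 79505264 to 79505353 on chromosome 7, was at 19.5 FPKM.

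The promoters of the processing and Argonaute genes were rich in CpG, the dinucleotide whose methylation is the subject of the series. RefSeq windows of 300 bases, 250 before and 50 after a start, matched 9 of the 10 genes, all but Ago2. RefSeq can list several starts for a gene, and in 9 of the 10 windows the start lay inside the outer end of the gene span given above. It lay 2128 bases inside for Ago3, 2115 for Tarbp2 and between 11 and 193 bases inside for another 7 windows, and for Xpo5 it was the outer end. The windows held 16 to 54 CpG. With each gene taken as the mean of its windows, the median of the 9 genes was 37. The median was 21 in 9722 detected protein-coding genes and 3 in 6842 protein-coding genes under the floor. The upper quartile of the detected genes was 28 CpG, and 7 of the 9 genes lay above it. Ago4, the lowest in level, had the most CpG (54), followed by Dicer1 with 49, Dgcr8 with 43 and Xpo5 with 40. Drosha and Ago3 had 37 each, and the 2 windows of Ago1 had 31 and 38. Tarbp2, with 21, and Prkra, with 16, lay at and under the median of the detected genes. Among the 9 genes the highest and the lowest level, those of Drosha and Ago4, thus both came with a count above the upper quartile.

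The 120 bases before the start used for the window are shown for the gene with the highest level, the lowest level and the fewest CpG, with every CpG in capitals. The Drosha stretch is chr15:12824695-12824814 on the plus strand, the Ago4 stretch chr4:126533459-126533578 and the Prkra stretch chr2:76648028-76648147, both on the minus strand, all in GRCm38.p6 from RefSeq. The starts used lie 11, 128 and 193 bases inside the outer ends of Drosha, Ago4 and Prkra, so the Ago4 and Prkra stretches fall within the gene span and the Drosha stretch reaches into it.
Drosha: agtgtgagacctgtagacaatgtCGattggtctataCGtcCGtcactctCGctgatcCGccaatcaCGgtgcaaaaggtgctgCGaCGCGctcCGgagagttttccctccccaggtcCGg
Ago4: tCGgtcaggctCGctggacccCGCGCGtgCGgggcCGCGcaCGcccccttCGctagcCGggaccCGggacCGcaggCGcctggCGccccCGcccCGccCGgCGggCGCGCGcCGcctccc
Prkra: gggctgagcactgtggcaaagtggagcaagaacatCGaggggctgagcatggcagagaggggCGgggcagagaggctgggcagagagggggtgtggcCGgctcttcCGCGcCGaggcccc
These stretches hold 11 CpG in Drosha, 23 in Ago4 and 6 in Prkra. Whether any of these CpG was methylated was not analysed here.

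**Figure D4:**
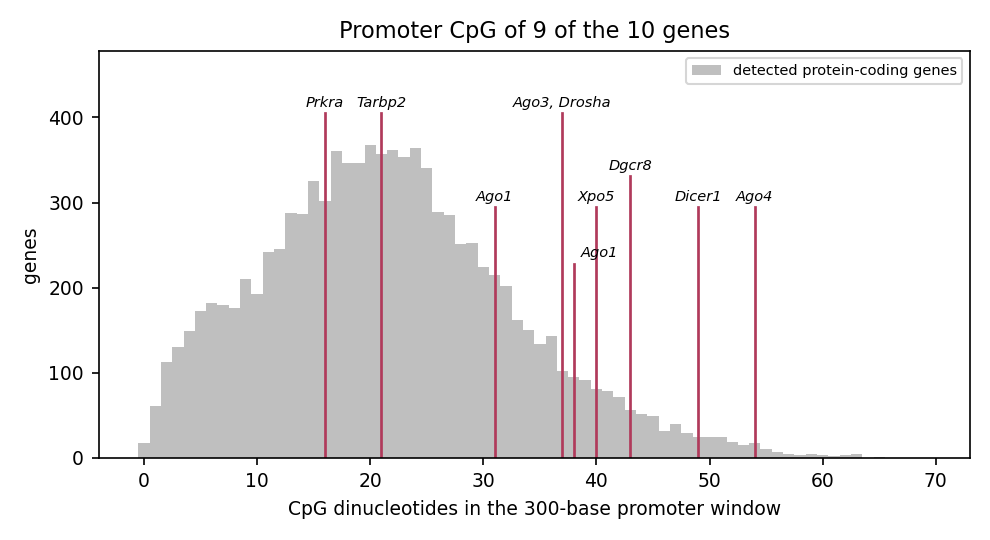
Number of protein-coding genes at or above 1 FPKM (vertical axis) by the CpG count of their 300-base promoter window (horizontal axis), averaged over a gene's windows, in grey; red lines mark the windows of 9 of the 10 genes, with a line for each window of Ago1. Prkra (16) and Tarbp2 (21) stand in the body of the distribution and Dicer1 (49) and Ago4 (54) in its right tail.

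Over 22 pairs of genes of a shared complex, family or step, 13 were at least 2-fold apart on the log2(FPKM + 1) scale. Among them were Dgcr8 and Drosha (a difference of -1.70, Dgcr8 minus Drosha), Dicer1 and Drosha (-2.20), Tarbp2 and Dicer1 (1.73) and Ago4 and Ago1 (-2.13). Ago2 and Ago1 (-0.79), Ago2 and Ago3 (0.67), Ago3 and Ago4 (0.67) and Prkra and Dicer1 (0.45) were nearer than that. Without the pseudocount Ago3 and Ago4 passed 2-fold, at 1.01. These are differences within a single table, with no replicate check. The share of all gene pairs at least 2-fold apart is not given here, so the count is not read as a trait of these pairs.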

How the data were processed

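RNA-seq of mPFC was read as 1 sample. Per the labels' protocols, RNA treated with DNase went into TruSeq v2 libraries. The submitters' processing notes name CASAVA 1.8.2, TopHat, Cufflinks and build mm10. How replicates were combined, the annotation, the strand setting and the versions of TopHat and Cufflinks were not given in the sources used here. FPKM per Ensembl gene is the unit the authors deposited.

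Identifiers were matched to symbols (45139 of 46073 rows). Gene classes, coordinates and sequences came from RefSeq for GRCm38.p6, the assembly of mm10, by symbol, which called 20635 rows protein coding. Genes at 1 FPKM or more were called detected. Percentiles count ties by their middle rank. Pairs were compared by ratio and by log2(FPKM + 1). With 1 sample no test was possible. CpG were counted in promoter windows. Named were all 10 genes, the genes of the pairs, and the 3 highest and 2 lowest of each pathway list, of which 1 gene is not reported here but is counted in its list; other host genes, cluster neighbours and overlapping genes were chosen after their values were seen. The 10 genes, lists and pairs were chosen with earlier results of these data known. The functions were tested on simulated data. Computation used pandas 2.3.3 and numpy 2.4.6 in Python 3.11.15, and figures matplotlib 3.10.9. Floor, pseudocount, scaling, summary and background were varied.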

Additional observations from a re-analysis of the deposited data

How the results depend on the processing

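At floors of 0.5 and 5 FPKM, 10 and 7 of the 10 genes were counted, against 10 at 1 FPKM. Of the pathway genes 85 and 69 were counted, against 83. The shares of all rows at floors of 0.5 and 5 FPKM are not given here, so these counts have no background. Scaling the values to a sum of 1000000 over nuclear rows put the median of the 10 genes at 16.2, against 6.36 FPKM as deposited. This scaling multiplies every gene alike and leaves order and ratios as they are. Its factor was 2.54, against 1.27 for a sum over all rows. Rows not counted as nuclear thus held a large part of the summed FPKM, and levels set against a fixed floor depend on the scaling. The geometric mean, taken on the log2(FPKM + 1) scale, was 6.70 FPKM. Set against rows at 1 FPKM or more, the median of the 10 genes was at the 40.7th percentile, against the 81.3rd over all rows, because that background leaves out the low rows. With a pseudocount of 0.1, 14 pairs were 2-fold apart, against 13 with 1, the added pair being Lin28b and Lin28a (2.35, against 0.50). With none, which leaves that pair out, the count was again 14, the added pair being Ago3 and Ago4 (1.01, against 0.67). Without a pseudocount Ago4 minus Ago1 was -2.76, against -2.13, and Piwil2 minus Ago2 -5.84, against -2.48, on the log2 scale. No pair changed direction. No paired analysis was possible because the table holds 1 RNA sample. Leaving out a replicate could not be done for the same reason. The depth is unknown, so how far counting error reaches for low genes such as Ago4 is not known.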

Other observations

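The table lists 1187 rows of microRNA genes, and most were at or near 0. Of these rows 873 were listed at 0 and another 39 lay above 0 and under 1e-06 FPKM, while 248 (20.9%) were at or above 1 FPKM, against 31.5% of all rows. The highest were Mir6236 at 1825 FPKM, Mir6240 at 1698 FPKM and Mir3082 at 1466 FPKM. Mir29c was listed at 546 FPKM. As said for the hairpins inside Dgcr8 and Xpo5, such rows are not levels of microRNA. Inside 16 of the 18 host genes lie 29 hairpins, and 17 of them were listed at 0 or under 1e-06 FPKM. Among the hairpins, Mir126b in Egfl7 and Mir3065 in Aatk lie on the strand opposite to the host. The hairpins of miR-128 differed: Mir128-2, in Arpp21, was listed at 0, and Mir128-1, in R3hdm1, at 105 FPKM, with hosts at 97.7 and 63.2 FPKM. Mir22 was at 86.0 FPKM in a host, Mir22hg, at 16.5 FPKM. These rows were named after their values were seen. The effective lengths behind these short rows are not given.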
